A study of Mus musculus with 6 samples.

Results

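Translation factors and aminoacyl-tRNA synthetases were examined in LKS-Slam cells, a sorted bone marrow population highly enriched for hematopoietic stem cells. The 64 genes were all those with a probe set of exactly 1 symbol that names a numbered eukaryotic initiation factor (Eif) or elongation factor (Eef), the release factor gene Etf1, or an aminoacyl-tRNA synthetase by its amino acid letter (such as Iars or Iars2). Eif2s3y, which lies on the Y chromosome, was left out. They had 72 probe sets of the 11229 that carry 1 symbol, and 14610 probe sets were tested in all. Where a gene had several probe sets, the one with the highest mean over all arrays stood for it. Amplified total RNA was hybridised to Affymetrix arrays, with 3 arrays, labelled biological replicates, in each group.

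The group labelled Zeb2-KO came from Zeb2 fl/fl Mx1-Cre mice, in which an interferon-responsive promoter, not restricted to stem cells, drives the recombinase. WT mice were C57Bl/6, and their labels name no Cre. All mice were injected with pIC, which induces interferon, when 6 weeks old, and their marrow was sorted after 8 more weeks, at an age of 14 weeks. The comparison asks what differs in stem cell-enriched marrow after induced deletion of the repressor gene Zeb2. In the arrays labelled Zeb2-KO, however, Zeb2 stood higher (7.79, 9.13 and 8.96 on the log2 scale) than in WT (6.58, 7.51 and 7.34), so its 1 probe set does not bear the label out. Whether that probe set lies inside the deleted stretch is not given in the sources used here, and if it does not, its level does not bear on the deletion. Every direction below rests on the labels. All values below are log2 intensities, and differences are Zeb2-KO minus WT.

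Protein synthesis starts when initiation factors place methionyl-tRNA and the small ribosomal subunit on a capped mRNA. Elongation factors then bring charged tRNAs to the ribosome and move it along, and release factors end the chain. Each tRNA is charged with its amino acid by a synthetase, and separate sets of synthetases serve the cytosol and, mostly, the mitochondria. Hematopoietic stem cells are known for a low rate of protein synthesis compared with their progeny. Phosphorylation of eIF2, by kinases that sense stress, slows initiation in general and favours the factor ATF4, which acts on synthetase and amino acid genes.

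Most of these genes lay higher in the arrays labelled Zeb2-KO, but none passed the test. Of the 64 genes, 53 (82.8%) lay higher and 11 lower, with a median difference of 0.36. Over all tested probe sets 44.6% lay higher, and among those at or above the median mean (log2 6.63) the share was 63.5%, with a median of 0.18. The 53 member genes at or above that mean had 48 higher (90.6%) and a median of 0.37, while the 11 dimmer ones had 5 higher and a median of -0.015. At an adjusted p of 0.05 (limma, adjusted over all tested probe sets) 0 of 64 were called, against 0.0137% of all tested probe sets, and the smallest adjusted p was 0.602.

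At an unadjusted p under 0.05, 7 members (10.9%) lay higher and 0 lower, against 5.69% and 1.33% of all tested probe sets. All 7 were among the 53 brighter genes (13.2%), where the share over all probe sets of that brightness was 8.69%. The 7 were Eif2ak2, Eif3l, Eif3d, Eif5a, Eef2k, Iars and Lars. Leaving out Zeb2-KO replicate 1 gave 12 such genes (18.8%, against 8.33% of all tested probe sets higher), leaving out WT replicate 2 gave 14 (21.9%, against 9.14%), and leaving out Zeb2-KO replicate 2 gave 3 (4.69%, against 2.86%), so the share over all probe sets moved with the members' count. The groups did not overlap in 6 members that lay higher (9.38%, against 6.9% of all tested probe sets), namely Eif2ak4, Eif3a, Eif4b, Iars, Lars and Wars. Among the brighter 53 it was 5 (9.43%), below the 10.4% of all probe sets of that brightness. Only Eef2kmt lay lower without overlap (1.56%, against 6.26%).

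**Figure D1:**
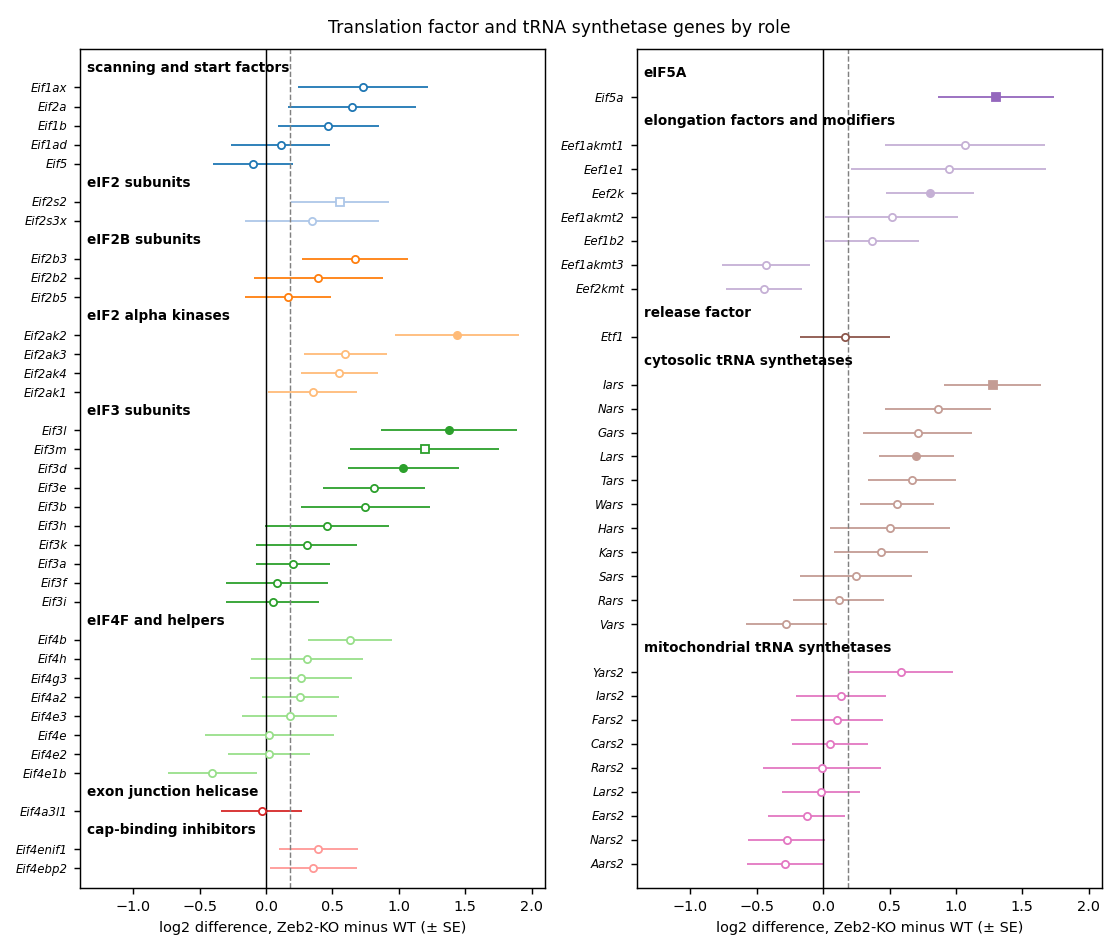
Log2 difference between the arrays labelled Zeb2-KO and WT for each of the 64 genes, grouped by role, with bars for the standard error (3 arrays a group). Filled symbols have an unadjusted p under 0.05, squares are probe sets whose identifier lies among probe sets of another chromosome, and the dashed line is the median of the brighter 7305 probe sets (0.18). All 10 eIF3 subunits, all 4 eIF2 kinases and 10 of 11 cytosolic synthetases lie right of 0, and the mitochondrial synthetases lie on both sides.

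The arrays themselves differed in how high these genes stood. The mean over the 64 genes was 7.78, 8.38 and 7.95 in Zeb2-KO replicates 1 to 3, against 7.33, 7.95 and 7.63 for WT, so the groups overlapped. At each replicate number the Zeb2-KO array stood higher. In both groups replicate 2 was highest and replicate 1 lowest. Leaving out 1 array, as in several fits below, therefore also unbalances the replicate numbers. Zeb2-KO replicate 2 was the highest array for 37 of the 64 genes, and WT replicate 1 was the lowest for 28. The spread of all probe sets moved in the same way. The interquartile range was 1.83, 2.40 and 2.11 in Zeb2-KO replicates 1 to 3, against 1.59, 2.03 and 1.77 for WT, again highest in Zeb2-KO replicate 2 and lowest in WT replicate 1. With that range as a covariate (a fit called spread-adjusted below), 29 of 64 members lay higher (45.3%, and 49.0% of all tested probe sets). The median reversed to -0.025. In that fit 2 members had an unadjusted p under 0.05, 1 higher and 1 lower (3.12%, against 5.13% of all tested probe sets). With quantile normalization 46 of 64 lay higher (71.9%) with a median of 0.19. There 42.4% of all tested probe sets lay higher, and 51.8% of the brighter ones, with a median of 0.022. With each array centred on its median the count stayed at 53, with a median of 0.34, and 62.5% of the brighter probe sets lay higher, with a median of 0.17.

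Several lists of lineage markers moved with the groups too. A gene on such a list can be expressed in more than 1 cell type, so the lists are not independent. All 7 measured of 9 B cell markers lay lower, with an array mean of 6.45 to 7.11 in Zeb2-KO and 7.19 to 8.23 in WT, and all 7 measured of 8 monocyte and dendritic cell markers lay lower (6.92 to 7.57 against 7.53 to 8.17). The 5 measured of 9 erythroid markers lay higher (7.42 to 8.22 against 7.02 to 7.14), as did 5 of the 6 measured of 9 megakaryocyte markers (8.15 to 8.93 against 6.67 to 7.48). The 4 measured of 8 granulocyte markers went both ways (2 higher, median 0.36), as did the 4 measured of 8 T and NK cell markers (2 higher, median -0.058). The 8 measured of 10 stem cell genes averaged 7.85 to 8.55 over the arrays, lowest in WT replicate 1. They were divided between the groups (4 higher, 4 lower, median 0.067). Slamf1 (1.30) and Kit (0.53), which the LKS-Slam gate itself uses, lay higher without overlap, as did Gata2 (0.35). These were 37.5% of the list, against 6.9% of all tested probe sets. Procr (-0.45) lay lower without overlap (12.5%, against 6.26%). Y-linked genes were raised in Zeb2-KO replicate 1 and WT replicate 1 (means of 6.17 and 5.13, against 3.82 to 4.03 in the others), and without these arrays 52 of 64 members lay higher with a median of 0.35. The part that other cell types have in the differences below was not tested. In such sorted samples, fewer cells of a type and less RNA per cell cannot be told apart.

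**Figure D2:**
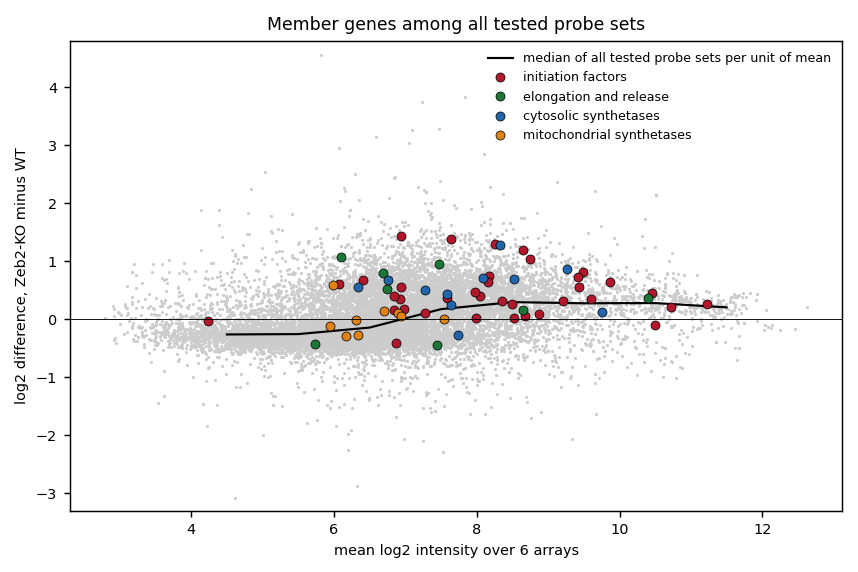
Log2 difference (Zeb2-KO minus WT) against the mean log2 intensity over 6 arrays for all 14610 tested probe sets (grey) and the 64 member genes (coloured by role), with the median of all tested probe sets per unit of mean as a line. The line runs from -0.26 between means of 4 and 5 to 0.29 between 8 and 9, where the 15 members have a median of 0.65.

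Factors that scan for the start codon or place the first tRNA came to 5 genes, of which 4 lay higher (median 0.47) and none had an unadjusted p under 0.05. In the spread-adjusted fit 1 of the 5 lay higher, with a median of -0.19. Eif1ax, the X-linked gene of the scanning factor eIF1A, stood at 9.47, 10.23 and 9.66 in Zeb2-KO replicates 1 to 3 and at 9.37, 9.98 and 7.82 in WT. Its difference of 0.73 (SE 0.49, limma adjusted p = 0.673) leaned on WT replicate 3, the one low array, and was 0.11 without it. Eif2a, an alternative carrier of initiator tRNA, differed by 0.65 (SE 0.48), with WT replicate 1 the one low array at 6.58 and 8.16 to 8.77 elsewhere, and by 0.022 without that array. Eif1b, a paralog of the scanning factor eIF1, lay at 0.47 and Eif1ad at 0.11, or -0.15 without either Zeb2-KO replicate 2 or WT replicate 1. Eif5, which makes eIF2 hydrolyse its GTP at the start codon, lay at -0.098.

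The carrier of the first tRNA, eIF2, was measured through its beta and gamma subunits. Eif2s2, the beta subunit, stood at 9.37, 10.15 and 9.62 against 8.44, 9.57 and 9.47, a difference of 0.55 (SE 0.37). Eif2s3x, the X-linked gamma subunit, lay at 0.35 (SE 0.50) and at -0.23 without WT replicate 1. Its 2 lowest arrays were those with raised Y-linked signal, Zeb2-KO replicate 1 (9.03) and WT replicate 1 (8.28), against 9.8 to 10.4 in the others. Of the complex eIF2B, which reloads eIF2 with GTP, 3 subunits were measured and all lay higher, with Eif2b3 at 0.67, Eif2b2 at 0.39 and Eif2b5 at 0.16. Arrays of the groups overlapped in each of these genes, and leaving out 1 array brought Eif2b2 to between 0.083 and 0.996 and Eif2b5 to between 0.0069 and 0.39. The direction of both complexes turned in the spread-adjusted fit, where 0 of 2 eIF2 subunits (median -0.28) and 1 of 3 eIF2B subunits (median -0.26) lay higher.

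The 4 kinases that phosphorylate eIF2 all lay higher, with a median of 0.57. At an unadjusted p under 0.05, 1 of the 4 (25%) lay higher, against 5.69% of all tested probe sets and 8.69% of the brighter ones. Eif2ak2, which encodes PKR, a kinase switched on by double-stranded RNA and induced by interferon, had the largest difference among the probe sets used for the 64 genes, although a second probe set of Eif2s2, described below, lay at 1.46. It stood at 6.98, 8.05 and 7.93 in Zeb2-KO replicates 1 to 3 and at 5.22, 7.07 and 6.35 in WT. WT replicate 1 was the lowest array, and Zeb2-KO replicate 1 fell just below WT replicate 2, so the groups overlapped. The difference was 1.44 (SE 0.47, 2.71-fold, limma adjusted p = 0.620), 0.94 without WT replicate 1 and 0.57 when spread-adjusted. Eif2ak4 (GCN2), which senses uncharged tRNA, stood at 7.35, 7.20 and 7.10 against 6.62, 7.0 and 6.37, without overlap, a difference of 0.55 (SE 0.29). Eif2ak3 (PERK), the kinase of endoplasmic reticulum stress, lay at 0.60 (SE 0.31), and Eif2ak1 (HRI), which responds to low heme, at 0.35 (SE 0.33), both with overlap. All 4 stayed above 0 in the spread-adjusted fit (median 0.49) and in each fit that left out 1 array, where medians ran from 0.43 to 0.71.

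The promoter of Eif2ak2 is shown because the gene is a known interferon target and its mice had received an interferon inducer. The RefSeq window (GRCm38.p6, 250 bases before to 50 after the gene start) was searched on both strands for GAAANNGAA, the core of the interferon-stimulated response element. The site starts 19 bases after the gene start, in the 30 bases at chr17:78882535-78882564, minus strand, with the motif in capitals, and a further match overlaps it.
Eif2ak2: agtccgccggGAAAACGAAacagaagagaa
Of the 49 members with a window, 3 held the motif (Eif2ak2, Eif2s3x and Eif3a), or 6.12%, against 9.76% of 27025 genes in the table. The match is a description of the sequence, and no binding was measured here.

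The 10 subunits of eIF3, the scaffold that holds the small subunit ready for mRNA, all lay higher, with a median of 0.60. Eif3l stood at 7.87, 9.36 and 7.74 in Zeb2-KO replicates 1 to 3 and at 6.43, 7.96 and 6.45 in WT, high in replicate 2 of both groups. Its difference was 1.38 (SE 0.51, 2.60-fold, adjusted p = 0.662). Eif3d, a subunit that can itself bind capped mRNA, stood at 8.96, 9.87 and 8.97 against 7.77, 9.12 and 7.81, with the same high replicates and a difference of 1.03 (SE 0.42, 2.05-fold, adjusted p = 0.673). Eif3m differed by 1.19 (SE 0.56, 2.29-fold), with 9.57 in WT replicate 2 inside the Zeb2-KO range of 8.72 to 9.72.

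Among the other eIF3 subunits, Eif3e lay at 0.81, Eif3b at 0.75, Eif3h at 0.46 and Eif3k at 0.31. Single arrays held much of these values, since Eif3b was 0.16 and Eif3e 0.50 without WT replicate 1, Eif3h -0.075 without WT replicate 3 and Eif3k -0.0084 without Zeb2-KO replicate 2. Eif3a, the large core subunit, was nearly flat at 10.82, 10.79 and 10.84 against 10.30, 10.76 and 10.78, without overlap but with a difference of only 0.21 (SE 0.28). Eif3f (0.082) and Eif3i (0.049) stood close to 0. In the spread-adjusted fit 6 of the 10 lay higher with a median of 0.068, and without Zeb2-KO replicate 2 the count was 7 of 10 with a median of 0.37.

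**Figure D3:**
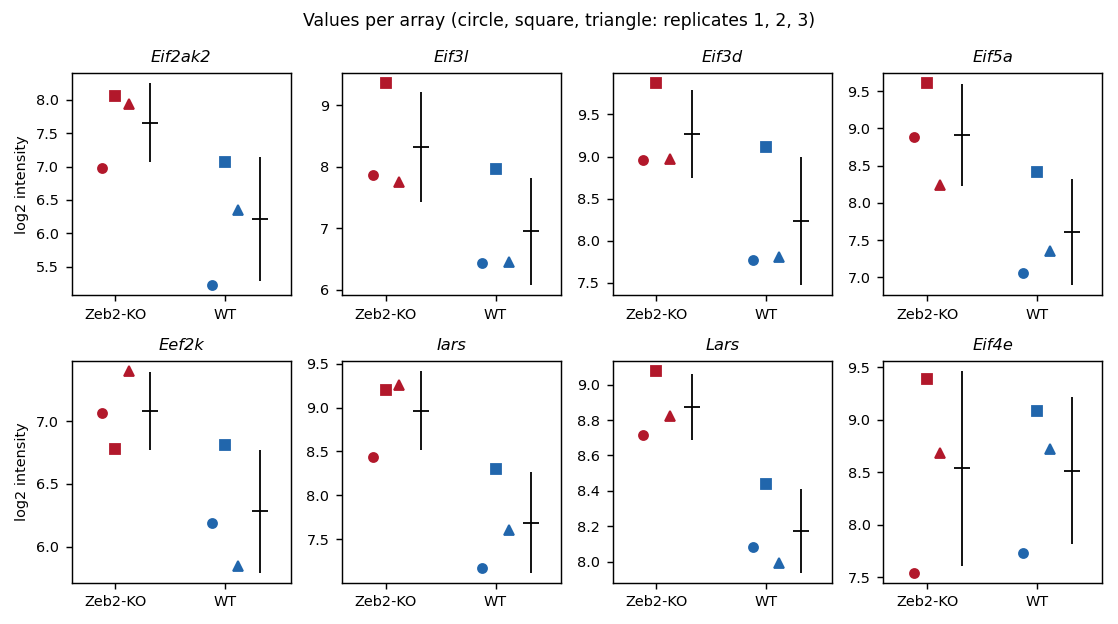
Log2 intensity of 8 genes in each array (circle, square and triangle for replicates 1, 2 and 3), with the group mean and SD of 3 arrays as a black bar beside the points. Eif2ak2, Eif3l, Eif3d, Eif5a and Eef2k overlap between groups, Iars and Lars do not, and Eif4e has the same mean in both groups within 0.025.

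The cap-binding complex eIF4F and its helpers lay nearer to 0, with 7 of 8 higher, a median of 0.22 and no unadjusted p under 0.05. Their median was -0.10 in the spread-adjusted fit (3 higher) and 0.0065 without Zeb2-KO replicate 2 (4 higher). Eif4b, which stimulates the helicase, stood at 9.81, 10.48 and 10.24 against 9.10, 9.79 and 9.74, without overlap, a difference of 0.63 (SE 0.32, adjusted p = 0.673). Eif4e, the cap-binding protein that limits initiation, stood at 7.54, 9.39 and 8.68 against 7.73, 9.09 and 8.72. Its group means were alike, at 8.54 ± 0.93 and 8.51 ± 0.70 (SD, n = 3), a difference of 0.025 (SE 0.48). Its paralogs lay at 0.18 (Eif4e3) and 0.020 (Eif4e2, a cap-binding repressor), and Eif4e1b, the oocyte form, at -0.40 (SE 0.34). The helicase gene Eif4a2 lay at 0.26, its cofactor Eif4h at 0.31 and the scaffold gene Eif4g3 at 0.26, or -0.16 without WT replicate 1. Eif4a3l1, a gene similar to the exon junction helicase, was dim in all arrays and lay at -0.033.

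Proteins that hold eIF4E back were measured by Eif4ebp2, a target of the growth kinase mTOR, and Eif4enif1, which carries eIF4E into the nucleus and to P-bodies. They lay at 0.36 (SE 0.33) and 0.39 (SE 0.30), with overlap in both. Eif5a, the hypusine-bearing factor that helps ribosomes past difficult peptides, stood at 8.88, 9.61 and 8.24 in Zeb2-KO replicates 1 to 3 and at 7.05, 8.41 and 7.35 in WT, where only WT replicate 2 reached the Zeb2-KO range. The difference was 1.30 (SE 0.43, 2.47-fold, adjusted p = 0.633). Its other probe set gave 0.30, as described below.

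The 7 genes grouped under elongation were mostly enzymes that modify elongation factors. Of the 7, 5 lay higher, and the median of 0.52 was the value of Eef1akmt2, described below. In the spread-adjusted fit 3 were higher (median -0.063). Eef2k, the kinase that inhibits eEF2 and so slows elongation, stood at 7.07, 6.78 and 7.40 against 6.19, 6.81 and 5.84, with overlap through WT replicate 2. The difference was 0.80 (SE 0.33, 1.75-fold, adjusted p = 0.673), and it was 0.72 when spread-adjusted. Eef1b2, the exchange factor of eEF1A, lay at 0.37 (SE 0.35). Eef1e1, a scaffold of the multisynthetase complex, ran from 5.97 to 9.25 within the Zeb2-KO group and differed by 0.94 (SE 0.74), or by 0.29 without Zeb2-KO replicate 2.

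The enzymes that methylate elongation factors went both ways. Eef1akmt1 stood at 8.26 in Zeb2-KO replicate 1 and between 5.16 and 6.31 in the other arrays. Its difference of 1.07 (SE 0.60) was 0.25 without that array and -0.21 with array weights. Eef1akmt2 lay at 0.52, or -0.15 without WT replicate 1, and Eef1akmt3 at -0.43. Eef2kmt, which methylates eEF2, stood at 7.56, 7.07 and 7.02 against 7.56, 7.61 and 7.80, with Zeb2-KO replicate 1 just below the lowest WT array, a difference of -0.44 (SE 0.29, adjusted p = 0.673). The release factor gene Etf1 stood at 8.51, 9.10 and 8.59 against 7.96, 8.83 and 8.93, a difference of 0.16 (SE 0.34). Without WT replicate 1 the Etf1 value was -0.14, without Zeb2-KO replicate 2 it was -0.022, and with quantile normalization it was -0.056.

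Of the 11 cytosolic synthetases, 10 lay higher, with a median of 0.56, 2 unadjusted p under 0.05 (18.2%) and 3 without overlap (27.3%). Over all tested probe sets these shares were 5.69% and 6.9%, and over the brighter ones, which leave out Wars, 8.69% and 10.4%. Iars, for isoleucine, had the smallest p of all 64 genes. It stood at 8.44, 9.20 and 9.26 in Zeb2-KO replicates 1 to 3 and at 7.17, 8.30 and 7.60 in WT, so that every Zeb2-KO array lay above every WT array. The difference was 1.28 (SE 0.37, 2.42-fold, limma adjusted p = 0.602). Lars, for leucine, stood at 8.72, 9.08 and 8.82 against 8.09, 8.44 and 7.99, also without overlap, with a difference of 0.70 (SE 0.28, 1.62-fold, adjusted p = 0.673). Wars, for tryptophan, was the third gene without overlap, at 6.36, 6.83 and 6.65 against 6.03, 6.18 and 5.96 (difference 0.56, SE 0.28).

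Nars, for asparagine, was even in the Zeb2-KO arrays (9.69, 9.75 and 9.66) and split in WT (8.24, 9.82 and 8.44), a difference of 0.87 (SE 0.40). Gars (glycine, also used in mitochondria) lay at 0.71, Tars (threonine) at 0.67, Hars (histidine) at 0.50 and Kars (lysine, also used in mitochondria) at 0.43. Sars (serine) at 0.25 and Rars (arginine) at 0.12 were small beside their errors of 0.42 and 0.34. Without WT replicate 1 they were -0.20 and -0.16, and Hars was -0.040 without Zeb2-KO replicate 2. Vars, for valine, was the one lower member, at 7.75, 7.68 and 7.35 against 7.49, 7.86 and 8.25 (difference -0.28, SE 0.30). The median of the 11 was 0.47 with quantile normalization (9 higher), 0.30 in the spread-adjusted fit (7 higher) and 0.33 without Zeb2-KO replicate 2 (8 higher).

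The 9 mitochondrial synthetases lay on both sides of 0, with 4 higher, 5 lower, a median of -0.0055 and no unadjusted p under 0.05. Yars2, for tyrosine, was the highest at 0.59 (SE 0.39), where Zeb2-KO replicate 1 was the lowest array at 5.37 and replicates 2 and 3 the highest at 6.90 and 6.57. Aars2, for alanine, lay lowest at -0.29 (SE 0.29), with 6.38, 5.85 and 5.84 against 6.52, 6.20 and 6.21. Nars2 lay at -0.27, Ears2 at -0.12, Lars2 at -0.015 and Rars2 at -0.0055, and Iars2, Fars2 and Cars2 lay between 0.050 and 0.14. The mitochondrial median took either sign with 1 array left out (-0.17 to 0.20). Of these genes, 5 are among the 11 dimmer members. The difference between cytosolic and mitochondrial synthetases was not tested.

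The promoters of the synthetases are shown because ATF4, which acts below the eIF2 kinases, binds a composite element in several of them. The element was searched as TGATGNAA on both strands. It was found in 5 of the 49 members with a RefSeq window (10.2%), against 4.51% of 27025 genes and 3.97% of 32851 windows. The 5 sequences below are on the gene's own strand, 5′ to 3′, with the element in capitals. They lie at chr13:49682126-49682155 (plus strand) for Iars, chr15:11399655-11399684 (minus) for Tars, chr6:55037960-55037989 (plus) for Gars, chr7:120851094-120851123 (plus) for Eef2k and chrX:94212729-94212758 (minus) for Eif2s3x, all in GRCm38.p6. Eef2k has more than 1 window, and its match lies in a downstream one (chr7:120850939-120851238), not in the one at chr7:120842581-120842880.
Iars: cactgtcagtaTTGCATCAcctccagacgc
Tars: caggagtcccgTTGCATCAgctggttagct
Gars: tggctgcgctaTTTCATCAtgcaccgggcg
Eef2k: ctttctgcttgTTTCATCAagctcagcttg
Eif2s3x: ttcgccatcatTTTCATCAggtctatgccg
All 5 genes lay higher, with a median of 0.71, and of the 44 members with a window but no match 36 lay higher, with a median of 0.33. These medians describe genes that share arrays, and no test was made of their difference.

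Other motifs were matched in the same windows. The E-box CACGTG, bound by MYC among other factors, stood in 11 of the 49 genes (22.4%, against 8.09% of all genes). Their median was 0.31, and it was 0.36 in the 38 without a match. The E-box is shown for Eif4e, a textbook MYC target, at chr3:138527192-138527221, and for Iars, which also holds the ATF4 element, at chr13:49682049-49682078, both on the plus strand.
Eif4e: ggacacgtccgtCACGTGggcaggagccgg
Iars: gaccaatcgccaCACGTGttgtttgtaggt
The 2 genes lay at 0.025 and 1.28 with the probe sets used. Their other probe sets gave 0.39 and -0.27 for Eif4e and 0.68 for Iars, as described below. CCGGAAG, the core bound by ETS factors, stood in 18 of 49 genes (36.7%, against 9.93%), with a median of 0.39 against 0.31 in the 31 without it. For every motif the comparison share is over all 27025 genes, measured here or not, without matching for brightness. Windows per gene also differed, with 65 for the 49 members and 32851 for the 27025 genes. Enrichment of the motifs was not tested.

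For 7 genes more than 1 probe set was measured, and the values depended on which was taken. Iars, Eif5a, Eif3m and Eif2s2 were each represented by a probe set whose identifier lies among probe sets of another chromosome. Of the 10 neighbours of the Iars probe set 8 were on chromosome 1, while the gene is on chromosome 13. Adjacent annotated probe sets share a chromosome in 92.4% of cases, and which sequence these 4 probe sets match is not given in the sources used here. The Iars probe set that lies among those of chromosome 13 stood at 7.67, 8.22 and 8.20 in Zeb2-KO replicates 1 to 3 and at 7.57, 7.41 and 7.06 in WT. It gave 0.68 (SE 0.30), again without overlap, in place of 1.28.

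The Eif5a probe set among those of its own chromosome gave 0.30 (SE 0.28) in place of 1.30, so the larger value rests on the other probe set alone. Eif3m gave 0.95 in place of 1.19. Eif2s2 gave more, at 7.75, 9.0 and 8.95 against 5.99, 8.10 and 7.23, a difference of 1.46 (SE 0.52, limma adjusted p = 0.656) in place of 0.55. The other probe sets of Eif4e lay at 0.39 and -0.27, on either side of the 0.025 given above. Those of Eif4e1b and Eif4enif1 lay at -0.29 and -0.13. With probe sets that lie among those of their own chromosome throughout, a choice made after the values were seen, 53 of 64 genes lay higher, the median was 0.35 and 7 had an unadjusted p under 0.05, though not the 7 named above, since Eif5a left and Eif2s2 entered.

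**Figure D4:**
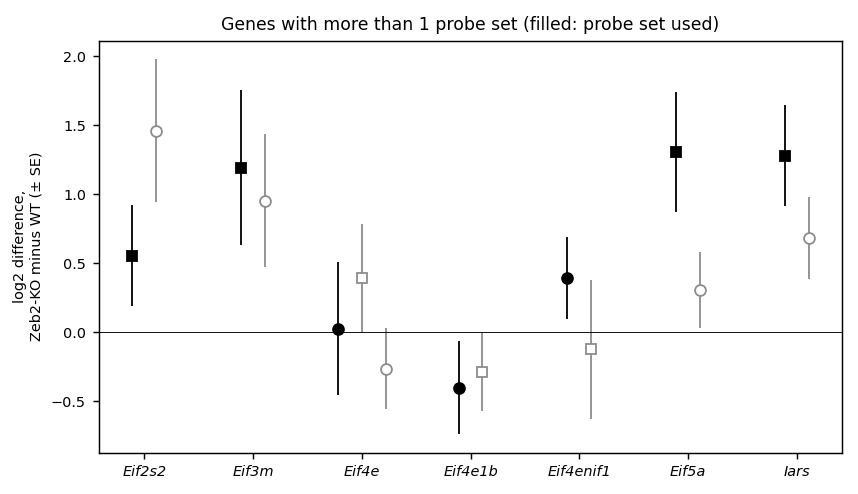
Log2 difference (Zeb2-KO minus WT) and its standard error for each probe set of the 7 genes that have several (3 arrays a group). Filled symbols are the probe sets used, squares lie among probe sets of another chromosome, and Eif5a shows the widest fall, from 1.30 to 0.30.

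Neighbouring parts of the pathway, from lists of genes outside the 64, also lay mostly higher, and none of their genes passed the adjusted test. Over all tested probe sets 44.6% lay higher, and among the brighter ones 63.5%. Of the release and ribosome recycling partners 5 of 5 measured (7 listed) lay higher, led by the recycling factor gene Abce1 at 0.73 and Hbs1l, of ribosome rescue, at 0.63. Both leaned on WT replicate 1, and without it they were 0.30 and 0.0073. Of the mitochondrial translation factors 9 of 10 measured (13 listed) lay higher. At an unadjusted p under 0.05, 2 of the 10 (20%) lay higher, against 5.69% of all tested probe sets and 8.69% of the brighter ones. These were the ribosome recycling factor gene Mrrf at 1.15 and the initiation factor gene Mtif2 at 0.72. Other synthetase and multisynthetase genes had 5 of 7 measured (12 listed) higher, among them Farsb at 0.65 (0.32 without Zeb2-KO replicate 2) and Tarsl2 at 0.71 (0.39 without Zeb2-KO replicate 3). All 4 measured of 9 hypusine and diphthamide genes, which modify eIF5A and eEF2, lay higher, with Dph3 at 1.05 and Dph5 at 0.76 (0.28 without Zeb2-KO replicate 1). Of the poly(A) and eIF4 partners 8 of 9 measured (14 listed) lay higher. Among them Pdcd4, an inhibitor of the eIF4A helicase, stood at 10.53, 11.10 and 10.78 against 9.74, 10.33 and 9.98, without overlap (difference 0.78, SE 0.30). Dap lay at 0.52, also without overlap. These 2 of the 9 (22.2%) lay higher without overlap, against 6.9% of all tested probe sets and 10.4% of the brighter ones.

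The targets of the integrated stress response, the programme below eIF2 phosphorylation, were divided, with 7 of 13 measured (24 listed) higher and a median of 0.073. Asns, asparagine synthetase, stood at 7.22, 9.48 and 8.14 in Zeb2-KO replicates 1 to 3 and at 5.87, 6.57 and 6.39 in WT. Every Zeb2-KO array lay above every WT array, and the difference was 2.0 (SE 0.49, 4.01-fold, limma adjusted p = 0.536). Slc7a5, an importer of large neutral amino acids, stood at 7.05, 7.69 and 7.19 against 6.52, 6.87 and 6.44, also without overlap (difference 0.70, SE 0.30). These 2 of the 13 (15.4%) lay higher without overlap, against 6.9% of all tested probe sets and 10.4% of the brighter ones. Vldlr, Ddit3 (CHOP) and Trib3, named after their values were seen, lay at -0.69, -0.34 and -0.051, and Vldlr was the lowest of the 13. Of the mTORC1 pathway only 4 of 14 listed genes were measured, 2 higher and 2 lower, with Rheb, the activator of mTORC1, at 1.26 (SE 0.67) and Sesn3 at -0.29. Rheb was low in WT replicate 1 alone (4.74), and without it the difference was 0.29.

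**Figure D5:**
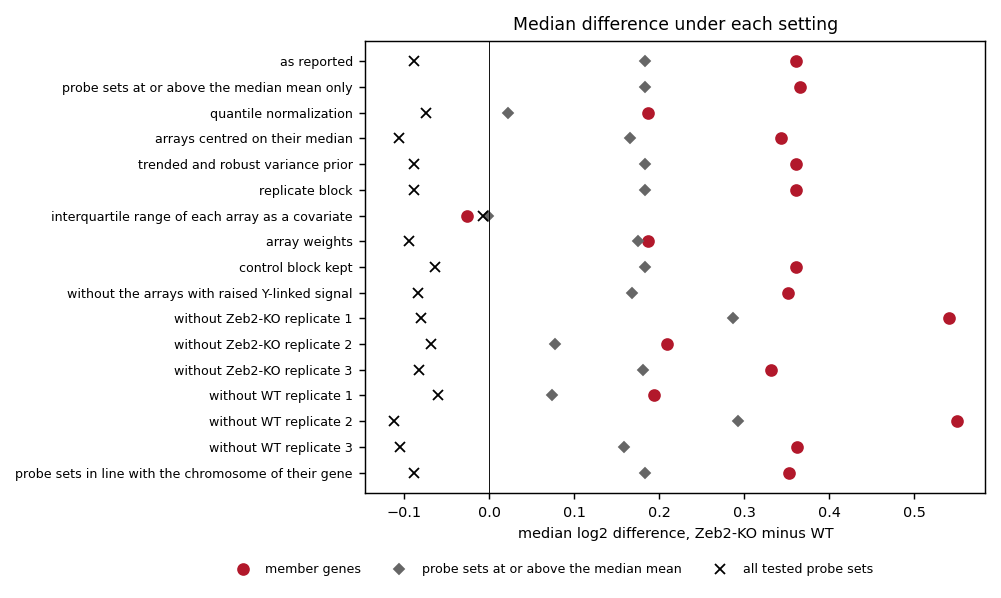
Median log2 difference (Zeb2-KO minus WT) of the 64 genes (circles), of the brighter 7305 probe sets (diamonds) and of all tested probe sets (crosses) under each processing setting. The median of the 64 genes lies between 0.19 and 0.55 except in the spread-adjusted fit, where it is -0.025.

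Across fits with 1 array left out, 35 of the 64 genes lay higher in all 6, 6 lay lower in all 6, and 23 changed side at least once. The median of the 64 ran from 0.19 without WT replicate 1 to 0.55 without WT replicate 2. Zeb2-KO replicate 2 had the strongest hold on the count of higher genes, which was 41 of 64 without it.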

How the data were processed

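RNA from 6 samples (3 labelled Zeb2-KO, 3 WT) was amplified with the Nugene Ovation Pico system and hybridised to Affymetrix arrays, per the labels' protocols. The deposited values are linear intensities per probe set, normalized by the authors with RMA per the submitters' processing notes; the software version is not given in the sources used here. The number of arrays limits the precision.

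Of 20220 probe sets, 5610 below the first annotated identifier were left out. The other 14610 were log2-transformed and fitted in limma 3.58.1 (R 4.3.3; lmFit, eBayes; 4 residual degrees of freedom and a prior of 6.87), and p-values were adjusted by Benjamini-Hochberg over the 14610. The deposited platform annotation gave 1 symbol for 11229 probe sets, several for 766 and none for 2615; 11184 of the 11229 matched RefSeq. The fit was tested on simulated data.

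The members and lists were chosen with earlier results of these data known. Named genes were Zeb2, members at an unadjusted p under 0.05, the 6 highest and 6 lowest brighter members, the 2 smallest p per role, and 14 fixed genes, of which 8 were measured (Eif4g1, Eif4ebp1, Eif2s1, Eef1a1, Eef2 and Eif6 are not analysed here). Other members named to complete a role were chosen after their values were seen. A probe set was taken to lie among those of its own chromosome if at least 3 of its 10 nearest annotated neighbours lay on the gene's chromosome. Promoter windows came from RefSeq (GRCm38.p6) and covered 49 of 64 members with 65 windows. Alternatives were a brightness filter, quantile normalization, centring, a trended robust prior, the replicate block, array spread as a covariate, mean probe sets, array weights, kept control probe sets, and left-out arrays.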

Additional observations from a re-analysis of the deposited data

How the results depend on the processing

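The number of arrays (6) limits every value, and no member passed the adjusted test except with array weights, whose estimation did not converge and gave Zeb2-KO replicate 3 a weight of 8.22; there 7 members passed, and 978 (6.69%) of all probe sets. The count of members at an unadjusted p under 0.05, in either direction, was 23 with array weights (35.9%, against 32.8% of all probe sets). It was 2 with array spread as a covariate (3.12% against 5.13%), 4 with control probe sets kept (6.25% against 5.50%) and 3 to 14 with 1 array left out. With the replicate number as a block it was 14 (21.9%, against 17.8% of all probe sets), and the smallest adjusted p was 0.277 (limma). In the higher direction alone, the shares were 31.2% against 17.2% with array weights and 20.3% against 9.69% with the block. They were 1.56% against 2.51% with array spread as a covariate and 6.25% against 4.2% with control probe sets kept. Same-numbered arrays correlated at 0.36, 0.41 and 0.047 in their deviations, and other pairs at 0.030 at most, so each array correlated best with its own number. The labels give no pairing beyond that number, and the main fit did not use it. With array spread as a covariate, 29 members lay higher with a median of -0.025. Role medians reversed there to -0.19 (scanning factors), -0.28 (eIF2), -0.26 (eIF2B), -0.10 (eIF4F) and -0.063 (elongation factors and their modifiers). In that fit Eif2a was -0.13, Eif2b2 -0.43, Eif2s2 -0.013, Eif2s3x -0.54, Eif4e -0.98, Eif4e2 -0.16, Eif4ebp2 -0.0098, Etf1 -0.27 and Eif4e1b 0.052. Quantile normalization reversed Eif4a3l1 (0.14), Eif4e (-0.19), Eif4e2 (-0.22) and Etf1 (-0.056). Array weights reversed Eef1akmt1 (-0.21), Eif4a3l1 (0.055), Etf1 (-0.13), Rars2 (0.11) and the median of elongation factors and their modifiers (-0.21). Without Zeb2-KO replicate 1 and WT replicate 1 together (raised Y-linked signal), Eif4a3l1 was 0.16, Etf1 -0.030, Rars2 0.53 and the mitochondrial synthetase median 0.25; with brighter probe sets only that median was 0.077. With 1 array left out, 23 of the 64 genes changed side. For those under the naming rule the ranges were -0.23 to 0.71 (Eif2s3x), -0.18 to 0.16 (Eif4a3l1), -0.40 to 0.52 (Eif4e), -0.19 to 0.22 (Eif4e2), -0.25 to 0.052 (Eif5), -0.14 to 0.34 (Etf1), -0.42 to 0.28 (Rars2), and the mitochondrial median ran from -0.17 to 0.20. The eIF2 median was -0.016 without WT replicate 1. The cause of these reversals was not tested. No named member reversed with centring, the trended prior, the block, mean or own-chromosome probe sets, or kept control probe sets.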
